A study of Homo sapiens with 6 samples.

Results

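The 30 genes described here are targets of the hypoxia-inducible factors (HIF) that lie outside glycolysis. They were chosen by name, with earlier results of these data known, and all 30 were found among the 35130 gene names of the series. NEN-treated cells were SK-N-BE(2) neuroblastoma cells given 1 µM NEN for 24 h. DMSO-treated cells were the same line given the solvent for 24 h, and there were 3 libraries per group, named biological replicates in the labels. Both groups share one line, which carries amplified MYCN, came from bone marrow and was grown in serum in dishes, and the oxygen level of the culture is not given in the labels. NEN stands in the labels as an abbreviation only. In neuroblastoma work the abbreviation is used for niclosamide ethanolamine, which uncouples mitochondrial respiration, and that meaning is background here. Levels are in TPM, a unit scaled by transcript length and library total, and no depth can be read from them.

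HIF is a pair of proteins made of an oxygen-regulated alpha subunit, such as HIF1A or EPAS1, and the stable partner ARNT. In oxygen, prolyl hydroxylases of the EGLN family mark the alpha subunit, and the VHL ubiquitin ligase sends it for destruction. In hypoxia the alpha subunit persists and the pair binds short DNA elements with the core letters ACGTG or GCGTG. The targets outside glycolysis cover control of pH, growth of blood vessels, removal of mitochondria, storage of fat and glycogen, cross-linking of collagen and feedback on transcription. In neuroblastoma this program is known from poorly oxygenated parts of tumours.

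The promoter stretches below are shown because they hold the letters that HIF binds, in genes that rose, fell or were not called. RefSeq promoters (build GRCh38.p14), each from 250 bases before the annotated start to 50 after it, were found for 19 of the 30 members. Those with no entry were VEGFA, STC1, LOXL2, BNIP3L, HILPDA, ZNF395, NDRG1, ANKZF1, SPAG4, RAB20 and FUT11. Capitals mark ACGTG or GCGTG on either strand, so CACGT and CACGC are the same letters read on the other strand, and CACGTG holds ACGTG on both strands. BNIP3, FAM162A and BHLHE40 had higher mRNA in NEN cells, and their stretches lie at chr10:131982013-131982076 (minus strand), chr3:122384080-122384121 (plus strand) and chr3:4979187-4979207 (plus strand).
BNIP3: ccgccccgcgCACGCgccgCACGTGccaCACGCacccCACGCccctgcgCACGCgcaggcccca
FAM162A: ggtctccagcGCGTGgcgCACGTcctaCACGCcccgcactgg
BHLHE40: tccaaCACGTGagactcatgt
WSB1 and CA12 had lower mRNA in NEN cells, and their stretches lie at chr17:27294003-27294071 (plus strand) and chr15:63382066-63382090 (minus strand).
WSB1: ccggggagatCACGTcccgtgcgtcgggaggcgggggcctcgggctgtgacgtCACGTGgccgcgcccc
CA12: ggatctcaccCACGCctgccagcag
ANKRD37 and PLIN2 were not called, and CA9 was near 0 TPM in every library. Their stretches lie at chr4:185396669-185396712 (plus strand), chr9:19127546-19127622 (minus strand) and chr9:35673900-35673924 (plus strand).
ANKRD37: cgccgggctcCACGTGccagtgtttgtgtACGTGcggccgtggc
PLIN2: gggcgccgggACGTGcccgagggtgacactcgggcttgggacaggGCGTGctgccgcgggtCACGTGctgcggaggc
CA9: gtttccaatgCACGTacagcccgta

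The BNIP3 stretch holds 6 matches in 64 bases, where CACGTG counts on both strands. Of the 19 members with a promoter, 3 were below the filter on low levels and not tested, unlike the genes they are set against. Over the whole promoters, ACGTG was found for 15 of the 19 members (78.9%), against 33.0% of the 9125 tested genes with a promoter in the table. The share with ACGTG or GCGTG was 94.7% for the members and 71.4% for those genes, and TMEM45A alone of the 19 had neither. The letters CACGTG, which are also the E-box bound by MYC-family proteins and include ACGTG, were found for 11 of the 19 members (57.9%) and 12.9% of those genes. Among these 19, split by their mRNA change in NEN cells, ACGTG was found for 3 of 4 members that rose and 1 of 2 that fell. It was found for 9 of 10 that were tested and not called, and 2 of 3 below the filter on low levels. NDRG1, ZNF395, ANKZF1, VEGFA and BNIP3L also rose but had no promoter entry, so this split leaves them out. These matches are counts of letters in a fixed window, and genes with several annotated starts had several windows.

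The set split in NEN cells. NDRG1, TMEM45A, BHLHE40, ANKZF1, ZNF395, VEGFA, BNIP3L, BNIP3 and FAM162A rose, while WSB1 and CA12 fell. The rises ran from 0.33 for FAM162A to 1.49 for NDRG1 on the log2(TPM + 1) scale. Testing required an average level of 1 TPM or more, which 26 members reached, and CA9, ADM, LOX and RAB20 did not. None of the 26 had a group mean under 1 TPM. By limma, with p-values adjusted (Benjamini-Hochberg) across the 12576 tested genes, 9 of 26 members rose (34.6%), against 13.5% of all tested genes, and 2 fell (7.69%), against 16.5%. In either direction 11 members (42.3%) passed an adjusted p of 0.05, against 30% of all tested genes. The median difference of the 26 tested members was 0.26, beside -0.02 for all tested genes. The NEN and DMSO libraries did not overlap for 15 of 26 members (57.7%), against 46.8% of tested genes. Of the 26, 12 were higher in NEN cells without overlap, against 21.8% of all tested genes, and 3 were lower, against 25%. The members were chosen with earlier results of these data known, so these shares only describe the set. In such bulk samples fewer cells of a type and less RNA per cell cannot be told apart. Each difference below is NEN minus DMSO ± SE in log2(TPM + 1) units, in which low genes appear to change less than they do, and group means are TPM ± SD with n = 3 each.

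**Figure D1:**
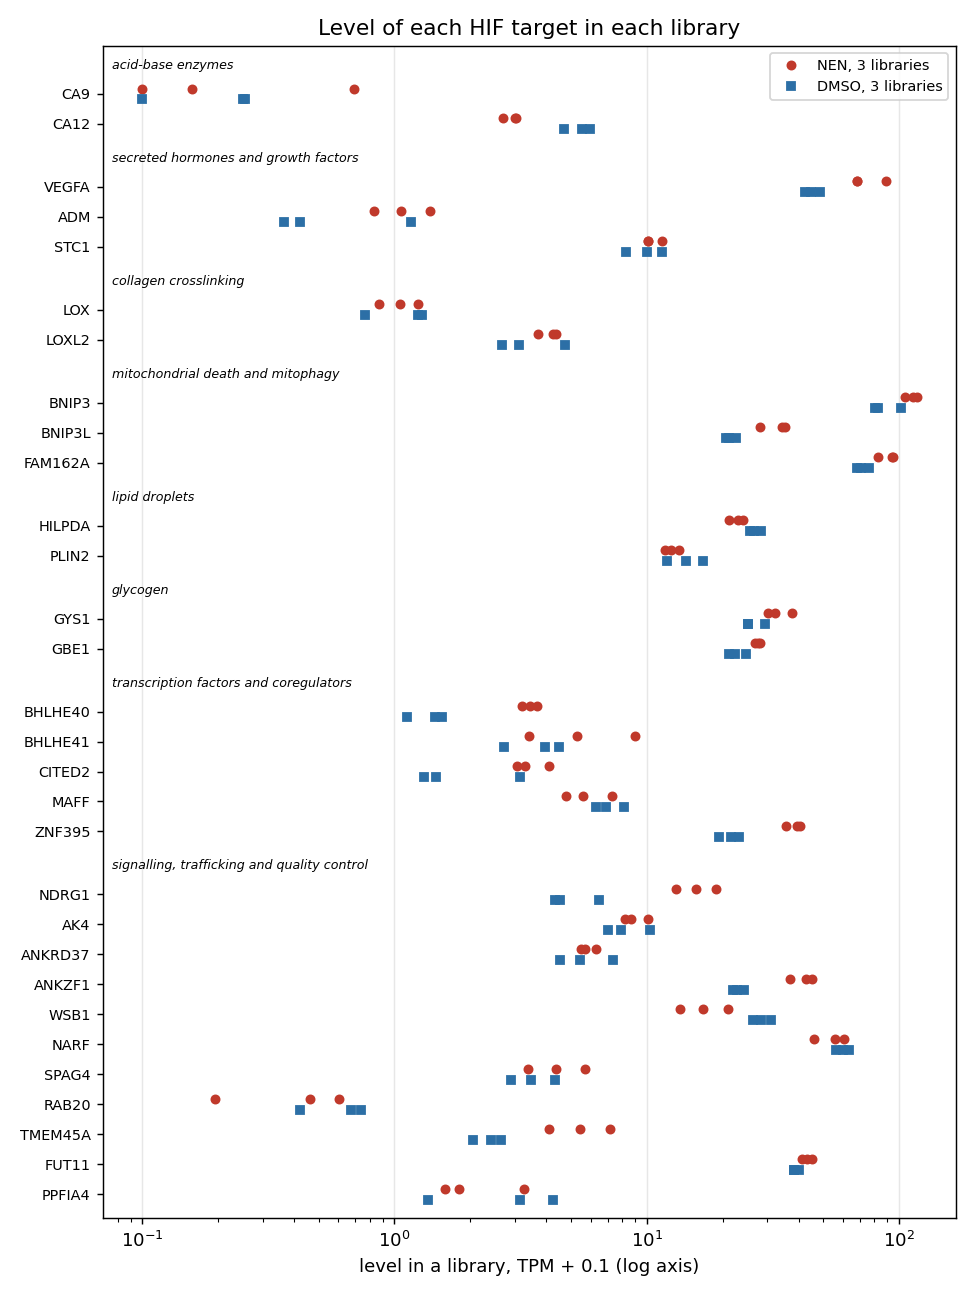
Level of each of the 30 members in each library, as TPM + 0.1 on a log axis, with NEN libraries as circles above DMSO libraries as squares and genes grouped by role. NDRG1, BHLHE40, ZNF395 and ANKZF1 show separated groups with NEN higher, CA12 and WSB1 show NEN lower, and CA9, ADM, LOX and RAB20 lie near 1 TPM or under it.

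The libraries were alike within groups, with Pearson correlations across tested genes of 0.978 to 0.980 among NEN libraries and 0.976 to 0.983 among DMSO libraries. Of the neuroblastoma markers, MYCN had 1405 to 1530 TPM in NEN libraries and 1044 to 1230 TPM in DMSO libraries, and DBH, which makes noradrenaline, had 585 to 627 TPM in NEN libraries and 438 to 478 TPM in DMSO libraries. Genes of mitochondrial DNA, taken by the prefix MT- of their names, made up 7.49% to 8.56% of summed TPM in NEN libraries. In DMSO libraries they made up 9.53% to 11.6%. The 7 blood cell markers summed to 0.140 to 0.380 TPM in NEN libraries and 0.486 to 2.35 TPM in DMSO libraries, with CD3E and HBB at 0 in all 6. The 5 endothelial markers summed to 0.998 to 1.95 TPM in NEN libraries and 0.762 to 1.17 TPM in DMSO libraries, with KDR at 0 throughout. The 6 epithelial markers summed to 5.55 to 12.9 TPM in NEN libraries and 7.82 to 9.18 TPM in DMSO libraries, with KRT5 at 0 throughout. The 7 stromal markers summed to 37.3 to 41.4 TPM in NEN libraries and 22.2 to 27.0 TPM in DMSO libraries. Of the 5 tested stromal markers 2 rose, PDGFRB and ACTA2, while the collagen gene COL1A1 had 0.62 to 4.47 TPM in NEN libraries and 1.30 to 2.37 TPM in DMSO libraries. The part of these markers in the results below was not tested.

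**Figure D2:**
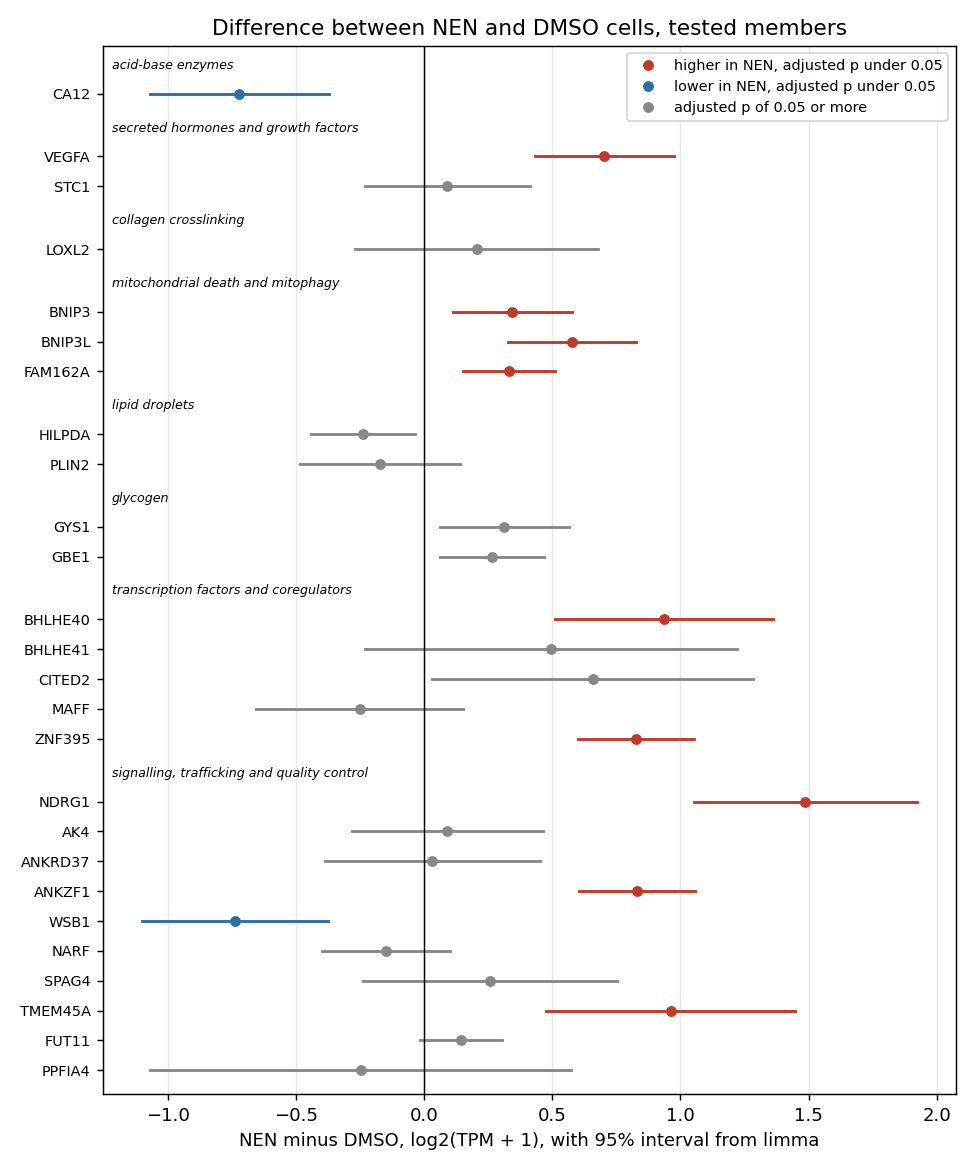
Difference between NEN and DMSO cells for the 26 tested members, on the log2(TPM + 1) scale with the 95% interval from limma, not adjusted for the number of genes. Red marks members that rose, blue those that fell and grey those with an adjusted p of 0.05 or more. BNIP3, BNIP3L and FAM162A lie above 0, and CA12 and WSB1 lie furthest below it.

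The 3 members of mitophagy and mitochondrial cell death, BNIP3, BNIP3L and FAM162A, rose, while AK4, an enzyme inside mitochondria, was not called. BNIP3 and BNIP3L (NIX) are BH3-like proteins of the outer mitochondrial membrane that recruit the autophagy machinery, and FAM162A is a mitochondrial protein linked to cell death in hypoxia. BNIP3L had 35.4, 34.3 and 27.9 TPM in NEN libraries, against 22.4, 20.5 and 21.2 TPM in DMSO libraries. The lowest NEN library lay above the highest DMSO library, and the difference was 0.58 ± 0.11 (limma adjusted p = 0.00716). FAM162A had 94.7, 82.6 and 93.7 TPM in NEN libraries and 68.1, 70.4 and 76.2 TPM in DMSO libraries, with no overlap. Its difference was 0.33 ± 0.08 (limma adjusted p = 0.0176), and this call did not hold once DMSO replicate 2 (adjusted p = 0.0576), NEN replicate 1 (0.0631) or NEN replicate 3 (0.0652) was left out. BNIP3, the highest member by mean TPM in both groups, had 118, 105 and 114 TPM in NEN libraries, against 82.8, 102 and 80.4 TPM in DMSO libraries. The groups were close at 1 point, since DMSO replicate 2 lay just under NEN replicate 2. The BNIP3 difference was 0.34 ± 0.10 (limma adjusted p = 0.0367), and the call was lost in 8 of 15 alternatives. These included leaving out DMSO replicate 1 (adjusted p = 0.0840), DMSO replicate 3 (0.105), NEN replicate 1 (0.112), NEN replicate 2 (0.0586) or NEN replicate 3 (0.102). BNIP3 has 39 listed pseudogenes, which summed to 4.78 to 6.50 TPM in NEN libraries and 6.57 to 7.69 TPM in DMSO libraries. Sharing of reads between them and BNIP3 was not tested, so the level of BNIP3 is uncertain to an unknown extent.

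Among secreted products, VEGFA rose, STC1 was not called and ADM was near the floor. VEGFA, the growth factor that drives sprouting of blood vessels, had 67.9, 67.9 and 88.5 TPM in NEN libraries and 48.7, 44.5 and 42.5 TPM in DMSO libraries. NEN replicate 3 was the highest library and the groups did not overlap, with a ratio of mean TPM of 1.65. The difference of 0.70 ± 0.12 (limma adjusted p = 0.00482) stayed past the threshold in all 15 alternatives, and ran from 0.58 to 0.77. STC1, stanniocalcin-1, a glycoprotein hormone, averaged 10.5 ± 0.77 TPM in NEN cells and 9.84 ± 1.59 TPM in DMSO cells, with overlapping groups. Its 95% interval ran from -0.23 to 0.41 (limma adjusted p = 0.656). ADM, which encodes the vasodilator peptide adrenomedullin, had 0.731, 0.965 and 1.28 TPM in NEN libraries and 0.264, 1.06 and 0.321 TPM in DMSO libraries. DMSO replicate 2 lay among the NEN libraries.

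Of the membrane-bound carbonic anhydrases, which set pH at the cell surface, CA12 fell and CA9 was below the filter and not tested. CA12 had 2.93, 2.91 and 2.60 TPM in NEN libraries, against 5.42, 4.58 and 5.88 TPM in DMSO libraries. All NEN libraries lay under all DMSO libraries, and the ratio of mean TPM was 0.531. The difference was -0.72 ± 0.15 (limma adjusted p = 0.0111). CA9, the member most used as a tissue marker of hypoxia, had 0.058, 0.592 and 0 TPM in NEN libraries and 0.151, 0.156 and 0 TPM in DMSO libraries. It was the lowest of the 30 members by mean TPM in both groups.

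The genes of collagen cross-linking were low, and neither was called. LOX, lysyl oxidase, averaged 0.954 ± 0.18 TPM in NEN cells and 0.997 ± 0.29 TPM in DMSO cells and was below the filter. LOXL2, a related oxidase, had 4.14, 4.25 and 3.60 TPM in NEN libraries, between the lowest and the highest of the DMSO libraries at 4.64, 2.58 and 3.02 TPM. Its 95% interval ran from -0.27 to 0.68 (limma adjusted p = 0.482).

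The stores of fat and of glycogen gave values on opposite sides of 0, and none of the 4 genes was called. HILPDA, which inhibits the triglyceride lipase ATGL, had 24.0, 21.1 and 23.0 TPM in NEN libraries, all lower than the 28.4, 25.7 and 26.6 TPM of the DMSO libraries. Its difference was -0.24 ± 0.09 (limma adjusted p = 0.0783). PLIN2, a coat protein of lipid droplets, averaged 12.5 ± 0.78 TPM in NEN cells and 14.3 ± 2.32 TPM in DMSO cells, with an interval from -0.48 to 0.14 (limma adjusted p = 0.368).

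GYS1, the glycogen synthase of muscle and other tissues, had 37.4, 32.3 and 30.1 TPM in NEN libraries, all higher than the 29.3, 25.1 and 25.2 TPM of the DMSO libraries. GBE1, the glycogen branching enzyme, had 27.4, 26.9 and 27.9 TPM in NEN libraries, all higher than the 22.4, 24.7 and 21.0 TPM of the DMSO libraries. Their differences were 0.31 ± 0.11 (limma adjusted p = 0.0653) and 0.26 ± 0.09 (limma adjusted p = 0.0557). Without DMSO replicate 1 GYS1 passed the threshold (adjusted p = 0.0440), and without DMSO replicate 2 GBE1 did (adjusted p = 0.0449). Both also passed with median-ratio scaling (adjusted p = 0.0466 for GYS1 and 0.0318 for GBE1) and with quantile normalization (adjusted p = 0.0331 and 0.0240, in the same order). In most alternatives neither gene changed its status: GYS1 stayed uncalled in 11 of 15 and GBE1 in 10 of 15. Their limma adjusted p-values there reached 0.177 and 0.146.

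Of the 5 transcription factors and coregulators, BHLHE40 and ZNF395 rose. BHLHE40 (DEC1), a repressor that also acts in the circadian clock, had 3.36, 3.09 and 3.56 TPM in NEN libraries, against 1.34, 1.02 and 1.45 TPM in DMSO libraries. The groups lay well apart, with a ratio of mean TPM of 2.63 and a difference of 0.94 ± 0.18 (limma adjusted p = 0.00851). ZNF395, a zinc finger factor induced in hypoxia, had 39.4, 35.4 and 40.5 TPM in NEN libraries and 19.2, 21.5 and 23.0 TPM in DMSO libraries. Here too the groups did not overlap, and the difference was 0.83 ± 0.10 (limma adjusted p = 0.00138).

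BHLHE41 (DEC2), the paralog of BHLHE40, varied widely among NEN libraries, with 3.32, 8.85 and 5.20 TPM, against 4.37, 3.86 and 2.61 TPM in DMSO libraries. NEN replicate 1 lay within the DMSO range, and the interval of the difference ran from -0.23 to 1.22 (limma adjusted p = 0.268). CITED2, which competes with HIF for the coactivators CBP and p300, had 3.99, 2.96 and 3.21 TPM in NEN libraries and 3.05, 1.37 and 1.21 TPM in DMSO libraries. DMSO replicate 1 alone overlapped the NEN libraries. The CITED2 difference was 0.66 ± 0.27 (limma adjusted p = 0.105), and without DMSO replicate 1 it was 0.93 (adjusted p = 0.0201). MAFF, a small MAF protein, averaged 5.78 ± 1.26 TPM in NEN cells and 7.01 ± 0.96 TPM in DMSO cells, with an interval from -0.65 to 0.15 (limma adjusted p = 0.313).

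The largest rise among the 26 tested members was in NDRG1, a stress-induced protein of membrane trafficking whose gene MYCN is known to repress. NDRG1 had 13.0, 15.5 and 18.8 TPM in NEN libraries and 6.35, 4.21 and 4.42 TPM in DMSO libraries. The lowest NEN library was above the highest DMSO library, the ratio of mean TPM was 3.16, and the difference was 1.49 ± 0.19 (limma adjusted p = 0.00176). NDRG1 was the single member called with a difference of at least 1, against 2.83% of all tested genes. That count depends on the 1 TPM added before the log. With 0.1 added instead, BHLHE40 (1.34, limma adjusted p = 0.00871) and TMEM45A (1.20, limma adjusted p = 0.0118) also passed 1. ANKZF1, which releases stalled chains from ribosomes in protein quality control, had 45.1, 42.8 and 37.0 TPM in NEN libraries and 21.8, 24.2 and 22.6 TPM in DMSO libraries. Its groups did not overlap, with a difference of 0.83 ± 0.10 (limma adjusted p = 0.00136). In GENCODE release 29, ANKZF1 shares 64 exonic bases with GLB1L on the opposite strand. GLB1L averaged 5.54 TPM in NEN cells and 7.15 TPM in DMSO cells. BNIP3L shares 56 bases with the pseudogene SDAD1P1, which averaged 0.1799 TPM in NEN cells and 0.0668 TPM in DMSO cells. FAM162A shares 3 bases with WDR5B, which averaged 1.85 TPM in NEN cells and 2.10 TPM in DMSO cells, and both of these genes also lie on the opposite strand. Exons of VEGFA, FUT11, NARF, LOXL2, BHLHE40 and HILPDA also overlap other annotated genes, which are not among the gene names of the series. The overlaps of HILPDA, of 186 and 175 bases, lie on the same strand, and those of the others on the opposite strand. The strand setting of the counts is unknown. TMEM45A, a transmembrane protein, had 3.996, 7.06 and 5.36 TPM in NEN libraries and 2.32, 2.55 and 1.94 TPM in DMSO libraries. The NEN libraries spread widely but all lay above the DMSO libraries, with a difference of 0.96 ± 0.21 (limma adjusted p = 0.0130).

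WSB1 fell. It encodes the substrate receptor of a ubiquitin ligase known to act on VHL. WSB1 had 13.4, 20.9 and 16.6 TPM in NEN libraries, against 28.3, 31.0 and 26.3 TPM in DMSO libraries. The groups did not overlap, the ratio of mean TPM was 0.594 and the difference was -0.74 ± 0.15 (limma adjusted p = 0.0119). NARF, a prelamin A binding protein, averaged 54.1 ± 7.29 TPM in NEN cells and 59.8 ± 3.33 TPM in DMSO cells (limma adjusted p = 0.334).

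The other members of this class were not called. FUT11, a fucosyltransferase, had 41.2, 43.0 and 45.0 TPM in NEN libraries, all slightly higher than the 40.1, 38.1 and 38.3 TPM of the DMSO libraries. Its interval ran from -0.02 to 0.31 (limma adjusted p = 0.156). ANKRD37, an ankyrin repeat protein, averaged 5.73 ± 0.42 TPM in NEN cells and 5.67 ± 1.47 TPM in DMSO cells, with an interval from -0.39 to 0.45 (limma adjusted p = 0.908). AK4, an adenylate kinase of the mitochondrial matrix, averaged 8.87 ± 0.99 TPM in NEN cells and 8.32 ± 1.68 TPM in DMSO cells (interval -0.28 to 0.46, limma adjusted p = 0.701). AK4 has 6 listed pseudogenes, which summed to 3.76 to 5.53 TPM in NEN libraries and 1.64 to 2.78 TPM in DMSO libraries. Sharing of reads between them and AK4 was not tested, so the level of AK4 is uncertain. SPAG4, a SUN-domain protein, averaged 4.39 ± 1.16 TPM in NEN cells and 3.47 ± 0.73 TPM in DMSO cells (interval -0.24 to 0.75, limma adjusted p = 0.396). PPFIA4, a liprin, averaged 2.12 ± 0.92 TPM in NEN cells and 2.81 ± 1.46 TPM in DMSO cells, and had the widest interval of the 26 members, from -1.07 to 0.58 (limma adjusted p = 0.635). RAB20, a small GTPase, had 0.361, 0.502 and 0.094 TPM in NEN libraries and 0.574, 0.323 and 0.635 TPM in DMSO libraries.

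Related members were compared directly by the log2 ratio of their TPM + 1 within each library, which does not change with the scaling of that library apart from the added 1. None of the 6 pairs passed an exact two-sided permutation test, which with 3 libraries against 3 cannot give a p under 0.10. The BNIP3 to BNIP3L ratio was 1.76 ± 0.20 in NEN cells and 1.99 ± 0.23 in DMSO cells (SD, exact permutation p = 0.3, adjusted p = 0.6 over the 6 pairs). The BHLHE40 to BHLHE41 ratio was -0.57 ± 0.65 in NEN cells and -1.01 ± 0.39 in DMSO cells (exact permutation p = 0.3, adjusted p = 0.6). The CA9 to CA12 ratio was -1.68 ± 0.33 in NEN cells and -2.51 ± 0.26 in DMSO cells, with CA9 near 0 in both (exact permutation p = 0.1, adjusted p = 0.6). With 0.1 TPM added in place of 1, the exact permutation p of the CA9 to CA12 ratio was 0.5. Exact p-values of the other pairs, LOX to LOXL2, GYS1 to GBE1 and HILPDA to PLIN2, were 0.4 to 0.7.

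**Figure D3:**
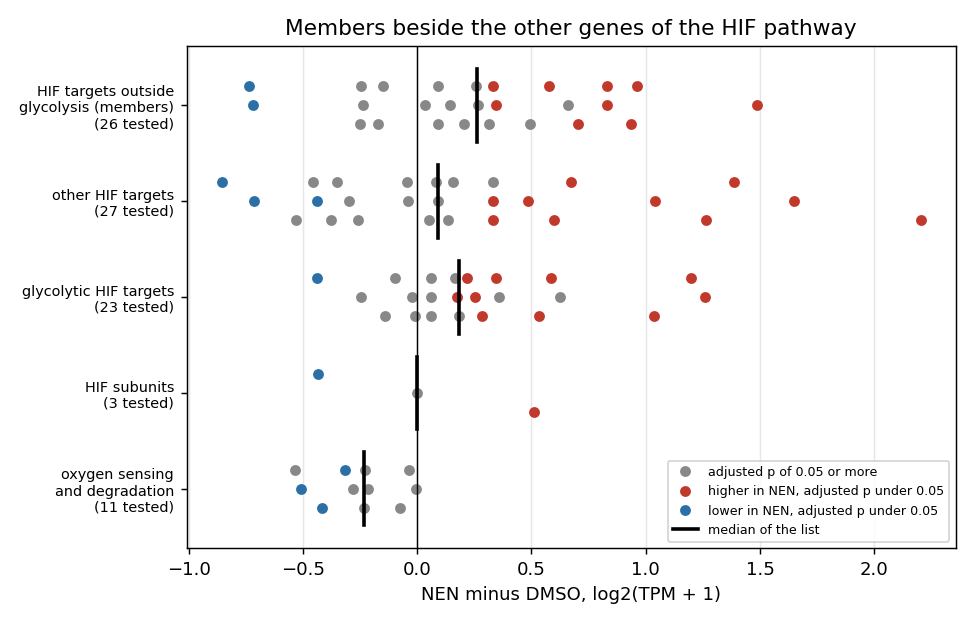
Difference between NEN and DMSO cells (log2(TPM + 1) scale) for the tested members and for the tested genes of 4 other lists of the HIF pathway, 1 point per gene, with the median of each list as a black bar. The medians are 0.26 for the members, 0.09 for other HIF targets, 0.18 for glycolytic targets, 0.00 for HIF subunits and -0.23 for oxygen sensing and degradation. The last list also holds the coactivators CREBBP and EP300, and the glycolytic list holds MXI1, an antagonist of MYC proteins.

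Other genes of the pathway split as well. Among all tested genes, for comparison, 13.5% rose and 16.5% fell, with a median of -0.02. Of 31 further HIF targets, 27 were tested, 10 rose and 3 fell, with a median of 0.09. The 4 with the smallest adjusted p were DDIT4, an inhibitor of mTORC1 (2.20 ± 0.15), CCNG2, an atypical cyclin of resting cells (1.39 ± 0.10), EFNA1, an ephrin ligand (1.04 ± 0.12), and TFRC, the transferrin receptor, which fell (-0.44 ± 0.06). Their limma adjusted p-values were 0.000295, 0.000323, 0.00143 and 0.00194, in that order. EFNA1 had 11.3, 13.8 and 13.7 TPM in NEN libraries and 5.42, 5.83 and 6.06 TPM in DMSO libraries. Glycolytic targets rose in 10 of 23 cases and fell in 1, with a median of 0.18. That list also holds MXI1, which is an antagonist of MYC proteins and not an enzyme of glycolysis. MXI1 had 33.7, 26.5 and 26.4 TPM in NEN libraries, against 12.1, 15.9 and 12.7 TPM in DMSO libraries (limma adjusted p = 0.00237). PGM1, which links glycogen to glycolysis, had 37.5, 36.2 and 37.5 TPM in NEN libraries, against 25.7, 24.9 and 22.5 TPM in DMSO libraries (limma adjusted p = 0.00239). ALDOC and SLC2A3, an aldolase and a glucose transporter, rose by 1.26 ± 0.13 and 1.20 ± 0.14 (limma adjusted p = 0.000924 and 0.00126).

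The list of genes that sense oxygen or degrade HIF, which also holds the coactivators CREBBP and EP300, had a median of -0.23. Of its 11 tested genes 3 fell by limma, CREBBP among them, against 16.5% of all tested genes, and 0 rose, against 13.5%. For 7 of the 11, CREBBP and EP300 among them, all NEN libraries lay under all DMSO libraries, against 25% of all tested genes. For 0 of the 11 did all NEN libraries lie above, against 21.8%. ELOC, elongin C of the VHL complex (listed as TCEB1), had 130, 136 and 126 TPM in NEN libraries and 180.5, 197 and 182 TPM in DMSO libraries (limma adjusted p = 0.00138). CREBBP, the coactivator CBP, averaged 20.03 ± 0.62 TPM in NEN cells and 27.0 ± 1.29 TPM in DMSO cells (limma adjusted p = 0.00836). EGLN2, a prolyl hydroxylase, averaged 34.2 ± 2.74 TPM in NEN cells and 42.9 ± 3.63 TPM in DMSO cells (limma adjusted p = 0.0398). The EGLN2 call was lost in 9 alternatives, among them leaving out DMSO replicate 2 (adjusted p = 0.102), DMSO replicate 3 (0.114), NEN replicate 1 (0.106) or NEN replicate 3 (0.124). CUL2, the cullin of that complex, had -0.53 ± 0.18 (limma adjusted p = 0.0565) and was not called. Without NEN replicate 1 it was -0.68 (adjusted p = 0.0351), and without NEN replicate 2, the lowest library, it was -0.34 (adjusted p = 0.0957). Of the 3 tested HIF subunits, ARNT had 39.3, 36.3 and 36.9 TPM in NEN libraries and 24.7, 26.5 and 26.8 TPM in DMSO libraries (0.51 ± 0.08, limma adjusted p = 0.00320). HIF1A was lower at 107, 96.2 and 104 TPM in NEN libraries, against 141, 147 and 129 TPM in DMSO libraries (limma adjusted p = 0.00483), and EPAS1 had an interval from -0.20 to 0.20 (limma adjusted p = 0.998).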

How the data were processed

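RNA-seq values of 6 libraries were used, 3 of NEN-treated and 3 of DMSO-treated cells. The deposited values are TPM, made by the authors with kallisto on hg19, per the submitters' processing notes. The sources used here name no version, annotation or strand setting. No header names the unit, and TPM was read from the tool and the values. The listed names sum to 929054 to 933500 TPM per library. Depth is unknown, so no counting interval is given.

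Genes averaging 1 TPM or more were kept, log2(TPM + 1) was taken, and limma (version 3.58.1, R 4.3.3, trend and robust settings) was fitted with group alone. Tests were two-sided, adjusted over 12576 genes by Benjamini-Hochberg, with a threshold of 0.05. Ratios of paired members used exact permutation tests (SciPy 1.17.1). The fit was also run on simulated data in which each gene varied independently, so effects shared across a library were not covered.

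The members, lists and classes were chosen with earlier results of these data known. All 30 members are named. Of the other lists, HIF1A, EPAS1 and up to 4 genes per list with the smallest adjusted p are named, and MYCN among the markers. The result of 1 marker is not reported here. Other marker genes, GLB1L and the relatives of members in the closing section were named after their values were seen. List symbols not found were matched through older symbols.

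The alternatives comprised omission of each library in turn, a replicate block, other filters, pseudocounts, scalings and limma settings, and, added after the data were seen, correction for transcript length and GC content (11741 genes, all 26 tested members).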

Additional observations from a re-analysis of the deposited data

How the results depend on the processing

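Of 382 values of members under alternatives, 355 kept their direction and side of the threshold, 11 lost a call (BNIP3 and FAM162A), 10 gained one (GYS1, GBE1 and CITED2) and 6 changed sign. BNIP3 also lost its call with plain limma settings (adjusted p = 0.0743) and no filter (0.0806). The sign changes were of 4 members that were not called: without 1 library the differences ran from -0.023 to 0.19 for STC1, from -0.016 to 0.23 for AK4, from -0.58 to 0.011 for PPFIA4 and from -0.11 to 0.20 for ANKRD37, which was also -0.030 after length and GC correction. The libraries were DMSO replicate 3 for STC1, DMSO replicate 2 for AK4, DMSO replicate 1 for PPFIA4, and DMSO replicate 3 or NEN replicate 1 for ANKRD37. EPAS1 ran from -0.044 to 0.053 without 1 library. The difference in the GYS1 to GBE1 ratio ran from -0.049 to 0.13 without 1 library, and that in the HILPDA to PLIN2 ratio from -0.14 to 0.040. In each of these cases the cause was not tested.

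The number of members called was 9 to 13 under the alternatives other than the fold limit, and 9 to 12 on leaving out a library. On the log2(TPM + 1) scale, a minimum difference of 1 left 1 member higher and 0 lower. It left 8 genes of the other pathway lists against 29, and 356 genes in all, 198 higher and 158 lower. With a minimum of 5 TPM 1 member was lower, since CA12 was no longer tested. Leaving out a library gave 2554 to 3455 genes called in all, 1061 to 1544 of them higher and 1391 to 1911 lower; the lowest count of higher genes, 1061 against 1699, was without NEN replicate 1. It gave 7 to 10 members higher, 2 lower in each case, and 22 to 28 genes of the pathway lists.

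Libraries with the same replicate number did not deviate together, with correlations of 0.012, -0.008 and -0.028 for numbers 1 to 3. With the replicate block 11 members and 2977 genes were called; BNIP3 lost its call (adjusted p = 0.0751), as did EGLN2 (0.0694), and GYS1 gained one (0.0470). The median of all tested genes lay between -0.04 and 0.00 in every fit. TPM carry no depth, so what was not called, above all CA9, ADM, LOX and RAB20, cannot be called absent or equal.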

Other observations

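Relatives of members that are not on the list were read after the values of the members had been seen. LOXL3, a lysyl oxidase related to LOX and LOXL2, had 13.9, 8.95 and 16.2 TPM in NEN libraries and 3.49, 5.67 and 6.84 TPM in DMSO libraries, a difference of 1.15 ± 0.27 (limma adjusted p = 0.0176). LOXL1 had 12.4, 13.5 and 9.86 TPM in NEN libraries and 6.48, 8.97 and 6.49 TPM in DMSO libraries, a difference of 0.64 ± 0.17 (limma adjusted p = 0.0268). For both, all NEN libraries lay above all DMSO libraries, while the values of LOX and LOXL2 overlapped. ADM2, which encodes a peptide related to adrenomedullin, had 3.14, 4.05 and 3.70 TPM in NEN libraries and 1.83, 1.56 and 1.62 TPM in DMSO libraries (limma adjusted p = 0.0131). AK4P3, listed as a pseudogene of AK4, had 4.28, 3.86 and 3.76 TPM in NEN libraries, against 2.59, 1.04 and 1.14 TPM in DMSO libraries (limma adjusted p = 0.0234), while AK4 itself was not called.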
